A study of Mus musculus with 15 samples.

Results

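The 10 genes described here are those of hepcidin and of iron uptake, transport, storage and export in mouse liver: *Hamp*, *Hamp2*, *Tfrc*, *Tfr2*, *Trf*, *Fth1*, *Slc40a1*, *Bmp6*, *Id1* and *Smad7*. They were chosen by gene symbol and make up 10 of the 55573 genes in the count table. Liver RNA of 15 mice aged 8 weeks was sequenced after depletion of ribosomal RNA, with a separate library for each mouse. The groups were 3 wild type (WT) females, 3 WT males, 5 females homozygous for the *Esr1* knockout (ESR1KO) and 4 ESR1KO males. All 15 mice carry the strain label B6N(Cg)-Esr1tm4.2Ksk/J, and ESR1KO mice came from matings of heterozygous females and males. This allele lacks exon 3 of *Esr1*, the gene of estrogen receptor alpha, in every tissue, so the groups differ in the whole animal and not in the liver alone, and the study describes raised testosterone in ESR1KO mice. The comparisons ask how the sexes differ in each genotype and how loss of ESR1 changes each sex.

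Hepcidin, the peptide hormone made by *Hamp* in hepatocytes, limits the entry of iron into blood by binding ferroportin, the only known cellular iron exporter, which is encoded by *Slc40a1*. Hepatocytes adjust hepcidin to iron mainly through BMP ligands such as BMP6 from sinusoidal endothelial cells, whose signal passes through SMAD proteins and also raises the feedback genes *Id1* and *Smad7*. Inflammation raises hepcidin through IL-6 and STAT3. The mouse carries a second hepcidin gene, *Hamp2*, next to *Hamp*, and the peptide it encodes is not known to act on iron as that of *Hamp* does.

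Total counts were between 27799061 and 78624766 per library, and levels are given as counts scaled to library size by TMM (CPM). All 10 genes passed the filter on low counts, as did 17655 genes in all. Adjusted p values come from edgeR's quasi-likelihood test with Benjamini-Hochberg adjustment over these 17655 genes, and a gene passed at an adjusted p under 0.05. Each fold change is the edgeR estimate on the log2 scale with its standard error (SE). *Esr1* itself lay between 74.7 and 88.2 CPM in WT females, 25.03 and 51.96 in WT males, 9.67 and 19.7 in ESR1KO females and 8.22 and 16.1 in ESR1KO males, so that every ESR1KO liver was below every WT liver. The labelled tissue was checked on 10 hepatocyte markers, which summed to between 101802 and 132635 CPM with none at 0 in any group. The tests set group differences against the spread between these mice and treat the mice as independent. Neither the litters of the mice nor any batch is named in the labels, so that could not be checked, and a difference of litter or batch between groups could not be told apart.

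*Hamp* lies at chr7:30942368-30944032 and *Hamp2* at chr7:30922372-30924681 of GRCm38 (GENCODE M21), both on the minus strand and 17686 bases apart. Their upstream sequences are shown because the levels of the 2 genes differed while these sequences are nearly the same. The 250 bases before each start, from RefSeq on GRCm38.p6 (chr7:30944030-30944279 and chr7:30924182-30924431, minus strand), are printed 5′ to 3′ with the letters GGCGCC, the core of the BMP-responsive element, or the aligned GGCACC in capitals and, after it, the STAT site TTCTTGGAA. The RefSeq start of *Hamp2* is also that of 2 of its 3 GENCODE transcripts, while another starts 500 bases further upstream and holds the window in an intron, so that the window lies within the gene record. For *Hamp* the GENCODE start lies 3 bases upstream of that of RefSeq.
Hamp upstream: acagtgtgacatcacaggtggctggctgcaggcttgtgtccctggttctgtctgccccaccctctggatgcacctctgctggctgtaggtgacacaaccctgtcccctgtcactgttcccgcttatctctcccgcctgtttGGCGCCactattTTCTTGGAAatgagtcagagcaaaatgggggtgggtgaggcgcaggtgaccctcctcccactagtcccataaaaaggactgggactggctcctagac
Hamp2 upstream: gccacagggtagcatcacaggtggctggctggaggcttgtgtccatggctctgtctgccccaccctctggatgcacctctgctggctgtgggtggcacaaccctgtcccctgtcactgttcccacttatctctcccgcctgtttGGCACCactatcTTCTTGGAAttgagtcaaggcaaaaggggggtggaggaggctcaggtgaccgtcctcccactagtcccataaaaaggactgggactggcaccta

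The RefSeq promoter table held 6 of the 10 genes. Over 247 aligned bases the pair shared 91.9% and differed by 20 substitutions, with the longest identical run at 40 bases. In the element core, *Hamp2* differs by G145A, counted from 1 at the 5′ end of the printed *Hamp* sequence with the *Hamp* base first. The core stands 109 bases before the start in *Hamp*, and GGCGCC was found on either strand in 9.59% of 32851 promoter windows of this length. It was not found in the *Hamp2* window. The STAT site, searched as TTCNNNGAA, was present in both windows and in 7.02% of all windows. Both windows also held TGAGTCA, an AP-1 type site (4.46% of all windows), and AGATAA, which is known as the site of GATA factors (9.99%). Each held 2 copies of CANNTG, the general E-box, both with the letters CAGGTG, and 66.2% of all windows held at least 1 match to CANNTG. The palindromic estrogen response element, GGTCA facing its own reverse complement across 3 bases, was found in neither window and in 0.0639% of all windows. GGTCA alone occurred at 1 place in each window and in 35.2% of all. Such matches describe letters and not bound sites.

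The transcripts of the pair are also known to be closely alike. The sources used here do not give how reads that map to several places were counted, so a part of the reads of either gene may be credited to the other or dropped. In WT males, where *Hamp* had between 7181 and 8078 counts, *Hamp2* made up at most 3.75% of the joint counts. The exons of *Hamp2* also overlap Gm44662 on the opposite strand by 89 bases, and that gene had between 0 and 6 counts per library.

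In WT livers, *Hamp2* was far higher in females than in males, while *Hamp* differed less and did not pass. *Hamp2* was at 61.4, 192 and 195 CPM in WT females 1 to 3 and at 6.92, 5.89 and 3.88 CPM in WT males 1 to 3. Every WT female was above every WT male, and WT female 1 had the lowest level of the females. The difference was 4.76 on the log2 scale (SE 0.529, 27-fold, edgeR adjusted p = 1.57e-05). Of the 10 iron genes only *Hamp2* passed in this contrast, in which 4.87% of all genes tested passed. With any mouse left out, the estimate stayed between 4.52 and 5.13 and passed. *Hamp2* was also higher than every WT male in all ESR1KO livers.

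ESR1KO females had *Hamp2* at 72.3, 85.2, 50.8, 26.8 and 25.1 CPM in mice 1 to 5, and ESR1KO males at 44.2, 40.5, 63.2 and 35.7 CPM in mice 1 to 4. The sexes overlapped completely around means of 52.04 ± 26.8 CPM (SD, n = 5) in females and 45.9 ± 12.02 CPM (SD, n = 4) in males. Their difference was 0.18 (SE 0.369, edgeR adjusted p = 0.822). None of the 10 genes passed between ESR1KO females and males by edgeR, where 0.272% of all genes passed. Of these 10, 3 were under an unadjusted p of 0.05 (*Fth1*, *Slc40a1* and *Id1*), beside 17.5% of all genes, and DESeq2 called *Slc40a1* alone, beside 2.72%.

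Set against WT of the same sex, *Hamp2* rose in ESR1KO males and fell in ESR1KO females. The rise in males was 3.05 on the log2 scale (SE 0.481, 8.30-fold, edgeR adjusted p = 0.00369), and each of the 4 ESR1KO males was above each of the 3 WT males. In that contrast 2 of the 10 genes passed, *Hamp2* and *Id1*, and 1.42% of all genes did. The fall in females was -1.52 (SE 0.390, edgeR adjusted p = 0.0318), and the groups overlapped, since WT female 1 was below ESR1KO females 1 and 2. *Hamp2* was the only one of the 10 to pass there, beside 5.71% of all genes. The effect of genotype thus differed between the sexes, by -4.58 for females less males (SE 0.615, edgeR adjusted p = 0.000354), and *Hamp2* was again the only one of the 10 to pass, beside 1.94% of all genes. The WT mice enter both the sex contrast and the genotype contrasts, so these values are not independent. With a log2 fold change of at least 1.5 required as well, *Hamp2* alone passed between WT sexes (1.81% of all genes), in females by genotype (1.2%), in males by genotype (0.578%) and in the interaction (1.09%), and none of the 10 between ESR1KO sexes (0.142%).

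The fall of *Hamp2* in females had the highest adjusted p of these calls. It no longer passed without WT female 2 (-1.30, adjusted p = 0.134 by edgeR), without WT female 3 (-1.28, 0.156), without ESR1KO female 4 (-1.36, 0.0574), or when only the groups compared were fitted (-1.54, 0.0987). Without ESR1KO females 1 and 2, left out after their values were seen, it was -2.13 (edgeR adjusted p = 0.0082). Among hepatocyte markers, whose cells make both hepcidins, *Alb* was higher in WT females by 0.66 (edgeR adjusted p = 0.0382), and with it the 10 markers summed to between 125637 and 132635 CPM in females and between 101802 and 102410 in males. Without *Alb* the other 9 lay the other way, between 41031 and 42798 CPM in females and between 45886 and 48865 in males. DESeq2 called *Ttr* (-0.37), *Apoa1* (-0.65) and *Apob* (-0.38) as lower in WT females, and edgeR did not. The part of these markers in the difference of *Hamp2* was not tested. In bulk liver RNA, fewer cells of a type and less RNA per cell cannot be told apart.

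*Hamp*, the gene of the iron hormone, was at 155, 346 and 289.6 CPM in WT females and 177, 197 and 119 CPM in WT males. In ESR1KO mice it was at 156, 156, 230.1, 169 and 257 CPM in females and 231, 167, 188 and 253 CPM in males. The 4 groups overlapped, and WT female 1, also the lowest WT female for *Hamp2*, was within the range of the WT males. WT females exceeded WT males by 0.68 (SE 0.275, edgeR adjusted p = 0.202), and without WT female 1 by 0.95, which passed (adjusted p = 0.0492 by edgeR). ESR1KO females minus WT females gave -0.45 (SE 0.242, edgeR adjusted p = 0.290), and ESR1KO males minus WT males 0.35 (SE 0.258, edgeR adjusted p = 0.666). The interaction for *Hamp* was -0.80 (SE 0.354, edgeR adjusted p = 0.321).

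**Figure D1:**
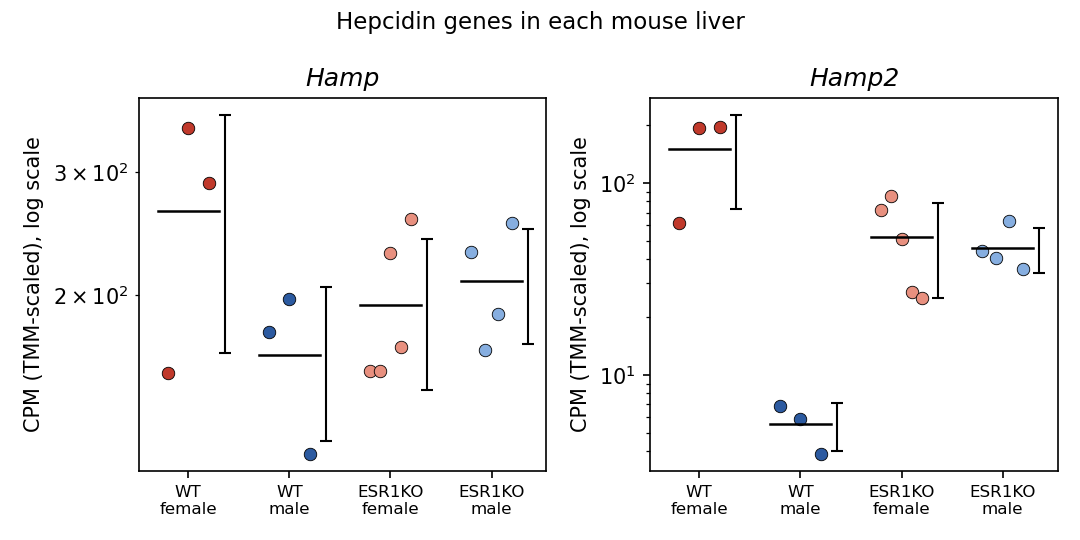
*Hamp* and *Hamp2* in CPM on a log axis, with a point for each mouse, a horizontal line at the group mean and a bar of ± 1 SD. The 3 WT males sit between 3.88 and 6.92 CPM of *Hamp2*, below all other mice, whereas the groups overlap for *Hamp*.

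Taking the pair together removes the scaling between libraries, since both counts come from the same liver. *Hamp2* made up 28.4%, 35.7% and 40.3% of the joint *Hamp* and *Hamp2* counts in WT females 1 to 3 and 3.75%, 2.90% and 3.16% in WT males 1 to 3. In ESR1KO females it was 31.7%, 35.3%, 18.1%, 13.7% and 8.88%, and in ESR1KO males 16.1%, 19.5%, 25.1% and 12.4%. ESR1KO females thus spanned a range from the WT female level to below every ESR1KO male. The counts give narrow 95% Wilson intervals, such as 39.6% to 40.9% for WT female 3 and 2.56% to 3.28% for WT male 2, which cover counting error only.

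WT females had a mean share of 34.8% ± 5.999 (SD, n = 3), and WT males one of 3.27% ± 0.438 (SD, n = 3), a difference of 31.5 percentage points in groups that did not overlap. A two-sided exact permutation test gave p = 0.1, the smallest that 3 against 3 mice allow. ESR1KO males, at 18.3% ± 5.42 (SD, n = 4), were 15 points above WT males (exact permutation p = 0.0571, also the smallest possible there). ESR1KO females, at 21.5% ± 11.5 (SD, n = 5), were 13.2 points below WT females (exact permutation p = 0.143) and 3.28 points above ESR1KO males (exact permutation p = 0.619). Adjusted over these 4 comparisons, the exact permutation p values were 0.19, 0.19, 0.19 and 0.619.

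**Figure D2:**
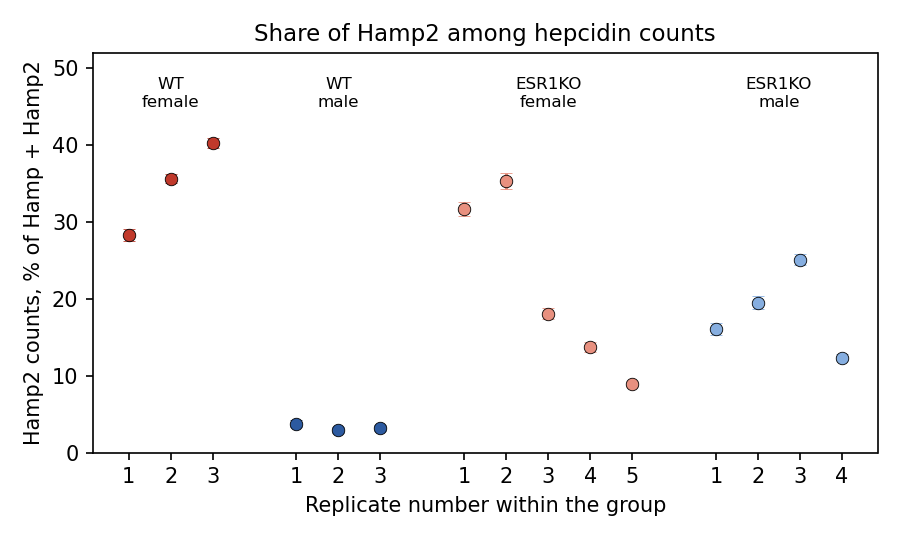
Share of *Hamp2* in the joint *Hamp* and *Hamp2* counts of each mouse, in percent, with 95% Wilson intervals. WT males lie at or under 3.75%, WT females at or above 28.4%, and ESR1KO mice of both sexes between 8.88% and 35.3%.

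*Trf* encodes transferrin, the iron carrier of plasma that hepatocytes secrete. It lies at chr9:103204001-103230444 on the minus strand and was the most abundant of the 10 genes per length, with a group mean between 974 and 1214 FPKM (CPM per kilobase of exon), ahead of *Hamp* at 401 to 643 FPKM. Its exons share 2108 bases with Gm20425 on the same strand, which had 1 count over the 15 libraries. How reads in shared bases were assigned is not given in the sources used here, which bears on the level of *Trf*. It was at 4407, 3889 and 3796 CPM in WT females and 3959, 3672 and 3529 CPM in WT males. ESR1KO females had 1976, 2191, 3897, 3899.9 and 4209.5 CPM and ESR1KO males 3715, 3538, 3294 and 3762 CPM. ESR1KO females 1 and 2 were below the other 13 mice, which all had at least 3294 CPM. No contrast of *Trf* passed, the largest in size being -0.32 for ESR1KO against WT females (SE 0.212, edgeR adjusted p = 0.397), and without ESR1KO females 1 and 2 it was -0.01 (edgeR adjusted p = 0.961).

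*Tfr2*, a hepatocyte receptor through which transferrin saturation reaches hepcidin (chr5:137569840-137587481, plus strand), followed the same mice. Its levels were 457, 379.9 and 428 CPM in WT females, 414, 432 and 419 in WT males, 176, 242, 399, 490.0 and 456 in ESR1KO females and 379, 404, 433 and 440.2 in ESR1KO males. Again ESR1KO females 1 and 2 were the 2 lowest of the 15 mice, and the others lay between 378.9 and 490.0 CPM. WT females and males had nearly equal means, at 422 and 422 CPM, with a difference of 0.00 (SE 0.269, edgeR adjusted p = 1). The genotype difference was -0.26 in females (SE 0.239, edgeR adjusted p = 0.557) and -0.03 in males (SE 0.252, edgeR adjusted p = 0.987).

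*Tfrc* encodes the transferrin receptor for uptake of bound iron, whose mRNA is kept from decay when cells lack iron (chr16:32608920-32632794, plus strand). It was at 26.2, 32.9 and 58.4 CPM in WT females, 28.4, 27.5 and 33.3 in WT males, 68.7, 79.9, 36.1, 17.5 and 22.4 in ESR1KO females and 41.3, 69.3, 20.4 and 29.4 in ESR1KO males. The coefficient of variation was 62.2% in ESR1KO females, the largest for any of the 10 genes in any group, and 53.0% in ESR1KO males, against 10.5% in WT males. ESR1KO females 1 and 2 and ESR1KO male 2 had the 3 highest levels. No contrast passed, and the largest was 0.43 for ESR1KO against WT males (SE 0.475, edgeR adjusted p = 0.804).

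**Figure D3:**
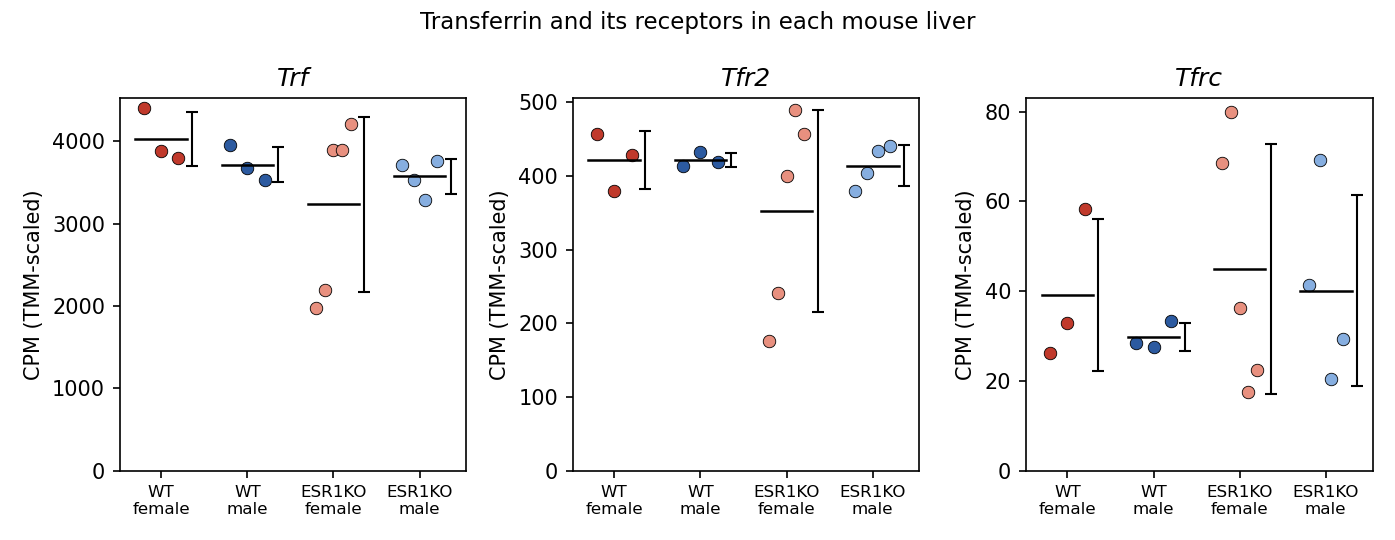
*Trf*, *Tfr2* and *Tfrc* in CPM on linear axes from 0, with a point for each mouse, a line at the group mean and a bar of ± 1 SD. ESR1KO females 1 and 2 are the lowest 2 points for *Trf* and *Tfr2*, whereas *Tfrc* in them is at 68.7 and 79.9 CPM.

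Over the 15 libraries, *Trf* and *Tfr2* went together within groups and *Tfrc* against them. For *Trf* with either receptor this rested largely on 2 mice, ESR1KO females 1 and 2. With group means taken out, the Pearson r of log2 CPM over the 15 libraries was 0.93 between *Trf* and *Tfr2*, -0.71 between *Tfrc* and *Trf*, and -0.75 between *Tfrc* and *Tfr2*. *Hamp2* gave -0.70 with *Trf* and 0.58 with *Tfrc*, while *Hamp* and *Hamp2* gave 0.22. Without ESR1KO females 1 and 2, left out after their values were seen, the r over 13 libraries was 0.16 for *Trf* and *Tfr2*, -0.15 for *Tfrc* and *Trf*, -0.55 for *Tfrc* and *Tfr2*, -0.58 for *Hamp2* and *Trf*, 0.26 for *Hamp2* and *Tfrc*, and 0.63 for *Hamp* and *Hamp2*. The libraries share their groups, and these values are descriptions. In the same 2 livers *Tmprss6*, the protease that trims the hepcidin signal, was at 293 and 321 CPM against 402 to 523 in the others, the clock gene *Nr1d1* at 19.6 and 22.005 against 19.9 to 69.1, and the clock output gene *Dbp* at 82.5 and 92.6 against 109 to 162. These 3 genes were looked up after the values had been seen. The listed clock genes together summed to 791 and 765 CPM in these 2 livers, within the 763 to 1015 of the others. The part of such differences in the iron genes was not tested. These 2 libraries stood apart more widely. The chi-square per gene of their counts against ESR1KO females 3 to 5, a measure that grows with depth, was between 95.3 and 422, while it was at most 129 among those 3 mice, 72.1 between females 1 and 2, and at most 72.4 between mice of a group elsewhere. They had the 2 lowest sums of the 15 mice for the lists of wider iron handling (5398 and 5755 CPM, against at least 6404 in the others), haem handling (5522 and 6080 against at least 6150) and the hepcidin sensing and BMP-SMAD genes (1110 and 1091 against at least 1188). Other lists did not place both mice lowest. Several placed them near the bottom. Counted from the lowest, they ranked 3 and 1 for cytokine and other inputs to hepcidin and 3 and 2 for clock genes. They ranked 4 and 2 for sinusoidal endothelial markers and 5 and 1 for immediate-early genes. Their ranks were 5 and 7 for acute phase genes, 11 and 5 for Kupffer cell markers and 8 and 5 for stellate cell markers. Their hepatocyte markers without *Alb* summed to 35896 and 39997 CPM, against 39475 to 48865 in the other 13. With *Alb* included, these 2 mice had 115469 and 127914 CPM, within the 101802 to 132635 of the others. Their total counts lay within the range of the other libraries.

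*Fth1* encodes the heavy chain of ferritin, the iron store of cells (chr19:9980598-9985098, plus strand). It was at 381, 376 and 394 CPM in WT females, 419, 404 and 419.8 in WT males, 422, 397, 459, 299.6 and 467 in ESR1KO females and 464, 488, 534 and 492.6 in ESR1KO males. The WT sexes did not overlap, nor did ESR1KO and WT males, yet the differences were small: -0.11 for the first (SE 0.140, edgeR adjusted p = 0.748) and 0.26 for the second (SE 0.132, edgeR adjusted p = 0.478). ESR1KO females minus males gave -0.27 (SE 0.115, edgeR adjusted p = 0.239). ESR1KO female 4 was the lowest of all 15 mice.

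*Slc40a1*, the gene of ferroportin and the target of hepcidin, lies at chr1:45908068-45926523 on the minus strand. Its levels were 229.9, 233 and 215 CPM in WT females, 233, 228 and 216 in WT males, 278, 203, 249, 262 and 266 in ESR1KO females and 191, 166, 220.5 and 207 in ESR1KO males. WT females and males had nearly the same mean, with a difference of 0.00 (SE 0.128, edgeR adjusted p = 0.996). ESR1KO females were above ESR1KO males by 0.36 (SE 0.106) with a slight overlap, since ESR1KO female 2 was below ESR1KO males 3 and 4. This difference did not pass by edgeR's test (adjusted p = 0.135) but did by DESeq2 (0.35, adjusted p = 0.0379). Markers of Kupffer cells, the liver macrophages that also export iron, moved the same way. The 10 markers, none at 0, summed to between 435 and 563 CPM in ESR1KO females and between 347 and 451 in ESR1KO males. By edgeR *Vsig4* alone passed (0.61, adjusted p = 0.021), beside 0.272% of all genes. DESeq2 called 6 of the 10 markers, beside 2.72%. Their part in the difference of *Slc40a1* was not tested.

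*Bmp6*, the main iron-dependent ligand (chr13:38345107-38500302, plus strand), was the lowest of the 10 genes per length, with a mean between 1.17 and 1.37 FPKM. It was at 4.87, 6.20 and 4.93 CPM in WT females, 4.74, 4.45 and 4.46 in WT males, 4.18, 5.05, 5.97, 4.75 and 4.72 in ESR1KO females and 4.84, 4.55, 4.91 and 5.37 in ESR1KO males. WT females were all above WT males, by 0.23 (SE 0.141, edgeR adjusted p = 0.449), and no contrast passed. Sinusoidal endothelial markers, of the cells that make BMP6, summed to between 663 and 668 CPM in WT females and between 475 and 632 in WT males, with none of the 10 at 0, and their part was not tested. The exons of *Bmp6* also share 224 bases with *Txndc5* on the opposite strand, a gene with between 4809 and 13047 counts per library, and the sources used here do not say whether strand was used in counting.

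*Id1*, a transcription regulator that BMP-SMAD signalling raises (chr2:152736251-152737410, plus strand), was at 4.28, 3.55 and 2.52 CPM in WT females and 2.05, 2.79 and 2.17 in WT males. It was at 2.82, 2.56, 2.92, 3.55 and 3.95 CPM in ESR1KO females and 6.18, 3.34, 5.38 and 3.91 in ESR1KO males. All 4 ESR1KO males were above all WT males, with a log2 difference of 1 (SE 0.234, 2-fold, edgeR adjusted p = 0.0421). The genotype effect in females was -0.12 (SE 0.217, edgeR adjusted p = 0.775), and the difference between the sexes in the genotype effect was -1.13 (SE 0.317), which did not pass in edgeR (adjusted p = 0.0926) and did in DESeq2 (-1.12, adjusted p = 0.0266). It also passed in edgeR without ESR1KO male 2 (-1.26, adjusted p = 0.0425).

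The call of *Id1* in males stood close to the threshold. Its edgeR adjusted p was 0.0557 without WT female 2 or without ESR1KO female 3, 0.169, 0.0681 and 0.198 without WT males 1, 2 and 3, and 0.138 and 0.125 without ESR1KO males 1 and 3, while the estimates stayed between 0.85 and 1.14. It was 0.0619 with scaling by total counts and 0.0522 when only the groups compared were fitted. Sinusoidal endothelial markers summed to between 588 and 710 CPM in ESR1KO males and between 475 and 632 in WT males. Of the 6 cholangiocyte markers, 2 passed in males by genotype, beside 1.42% of all genes. *Krt19* (1.23) and *Epcam* (0.95) rose in ESR1KO males, with edgeR adjusted p values of 0.0307 and 0.03. The log2 fold changes of the 6 ranged from -0.28 to 1.23. Their sums overlapped, at 41.5 to 59.6 CPM in ESR1KO males and 34.1 to 55.7 in WT males. The part of these endothelial and cholangiocyte markers in the rise of *Id1* was not tested.

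*Smad7*, the inhibitory SMAD of this pathway (chr18:75367529-75395935, plus strand), was at 14.4, 16.9 and 12.3 CPM in WT females, 11.1, 16.01 and 13.3 in WT males, 11.7, 11.2, 13.3, 11.2 and 16.7 in ESR1KO females and 17.7, 9.52, 11.9 and 12.9 in ESR1KO males. Its groups overlapped throughout, and the largest contrast in size was -0.18 for ESR1KO against WT females (SE 0.184, edgeR adjusted p = 0.598). With group means taken out, *Smad7* and *Id1* had a Pearson r of 0.74 over the 15 libraries and of 0.72 without ESR1KO females 1 and 2, given as a description.

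Over the 10 genes, the median log2 fold change was 0.17 for WT females against males, -0.06 for ESR1KO females against males, -0.15 for ESR1KO against WT females and 0.19 for ESR1KO against WT males. The medians over all genes tested were 0.01, 0.01, 0.00 and 0.00. Genes other than *Hamp2* and *Id1* moved by at most 0.68 in size in the 4 pairwise contrasts, and *Hamp* gave that value.

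**Figure D4:**
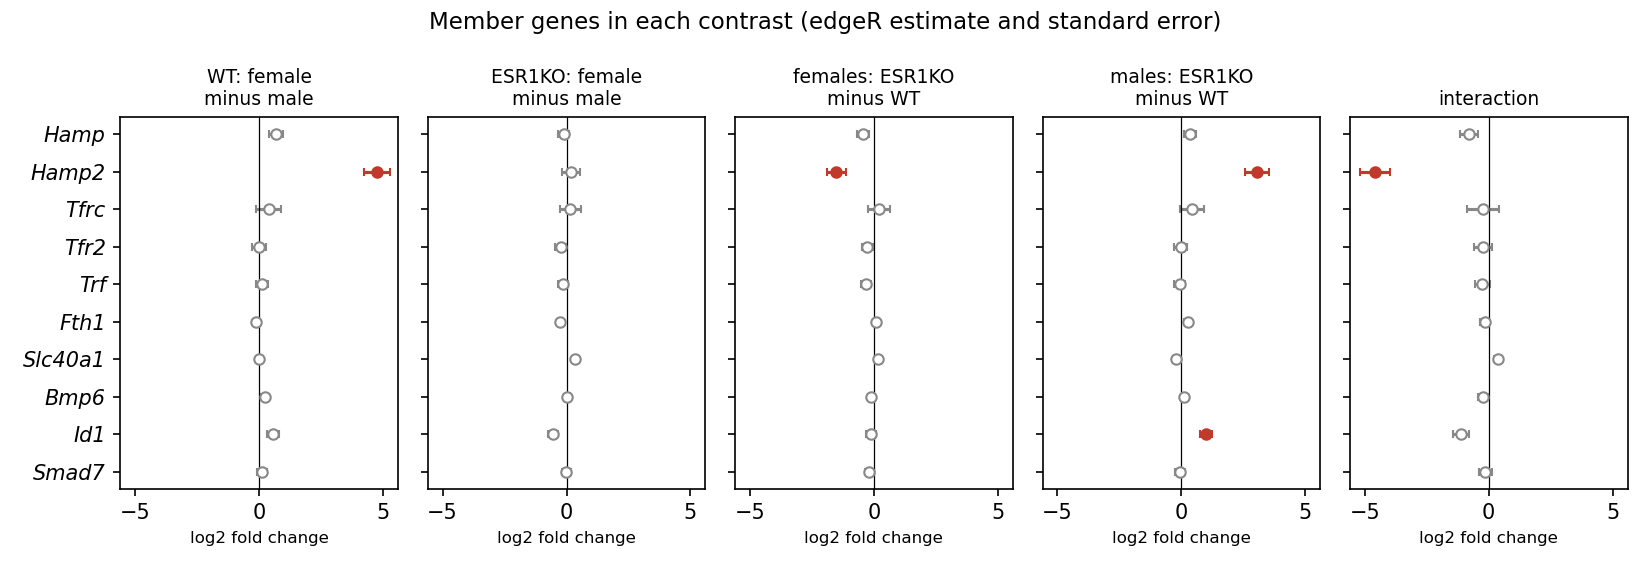
The log2 fold change of each of the 10 genes with its SE in the 4 contrasts and the interaction, from edgeR, with filled points for an adjusted p under 0.05. *Hamp2* is filled in 4 of the 5 panels, from 4.76 in WT females against males to -4.58 in the interaction, and *Id1* only for ESR1KO against WT males.

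The counts in other lists of hepcidin control and iron handling are to be read against the shares of all genes. By edgeR these were 4.87% between WT sexes, 0.272% between ESR1KO sexes, 5.71% in females by genotype, 1.42% in males by genotype and 1.94% in the interaction. At an unadjusted p they were 17.3%, 17.5%, 22.5%, 11.9% and 14.3% in the same order, and by DESeq2 5.88%, 2.72%, 9.31%, 2.75% and 3.29% of the genes it gave an adjusted p.

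Of 30 tested genes of the sensing complex and BMP-SMAD signalling, 2 passed between WT sexes: *Bmp7*, a BMP ligand, was lower in females by -1.01 (SE 0.184, edgeR adjusted p = 0.00257), and *Bmper*, a secreted BMP-binding protein, was higher in females by 1.41 (SE 0.286, edgeR adjusted p = 0.00657). *Bmper* lay between 1.48 and 1.79 CPM in WT females and between 0.428 and 0.766 in WT males. It fell by 0.96 in ESR1KO females, where it lay between 0.599 and 1.24 CPM (edgeR adjusted p = 0.0294). Neither between ESR1KO sexes nor in males by genotype did any of the 30 pass in edgeR, with 10 and 1 under an unadjusted p of 0.05 and 3 (*Hjv*, *Bmp2* and *Bmp7*) and 0 called by DESeq2. DESeq2 called 4 between WT sexes (*Bmp2*, *Bmp7*, *Smad6* and *Bmper*), 3 in females by genotype (*Acvr1*, *Bmper* and *Eng*) and 0 in the interaction. *Bmp2*, a BMP ligand that also raises hepcidin, is named after its values were seen. It was at 20.7, 20.8 and 20.8 CPM in WT females and 10.8, 15.3 and 14.8 in WT males, and between 15.3 and 22.2 CPM in ESR1KO females and 9.18 and 14.4 in ESR1KO males, so that females and males did not overlap in either genotype. Its sex differences were 0.61 in WT and 0.55 in ESR1KO mice by edgeR, which did not pass (adjusted p = 0.053 and 0.104), and 0.59 and 0.54 by DESeq2, which did (adjusted p = 0.0244 and 0.0236). The BMP antagonists *Nog* and *Grem1* were too low to test, with 0 and 2 counts over all 15 libraries, where a count of 0 allows up to 0.00413 CPM over the libraries together.

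Among 17 tested genes of cytokine and other inputs to hepcidin, 1 passed between WT sexes, *Egfr* (-1.09, edgeR adjusted p = 0.0211), the EGF receptor. *Il6ra*, the receptor subunit for IL-6, fell by 0.78 in ESR1KO females (SE 0.221, edgeR adjusted p = 0.0479). It was at 43.4, 64.99 and 52.5 CPM in WT females and 34.1, 31.3, 31.3, 23.9 and 35.04 CPM in ESR1KO females, which did not overlap. *Il6* itself and *Erfe*, the erythroid hormone that lowers hepcidin, had 38 and 11 counts over the 15 libraries and were not tested. Between ESR1KO sexes, in males by genotype and in the interaction none of the 17 passed in edgeR, with 2, 4 and 3 under an unadjusted p of 0.05 and 0 called by DESeq2 in each. In females by genotype DESeq2 called *Il6ra* and *Epas1*, and between WT sexes *Egfr*. Of 13 acute phase genes, 3 passed between WT sexes: *Saa1* (-2.78) and *Saa2* (-2.40), the serum amyloids, were lower in females, and *Orm3* (3.08), an orosomucoid, was higher, with edgeR adjusted p values of 0.00216, 0.0228 and 0.00141. The mice spread widely. *Saa1* lay between 9.01 and 16.7 CPM in WT females and between 24.3 and 182 in WT males. *Saa2* lay between 5.44 and 10.4 CPM in WT females and between 8.70 and 102 in WT males, with overlap. *Orm3* lay between 1.15 and 8.18 CPM in WT females and between 0.349 and 0.692 in WT males. In ESR1KO females *Orm3* fell by 2.89 against WT females (edgeR adjusted p = 0.000623). DESeq2 called 5 of the 13 between WT sexes, 1 between ESR1KO sexes, 3 in females and 4 in males by genotype and 5 in the interaction. *Saa1* and *Saa2* are near-identical copies, so their split is uncertain.

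Of 22 tested genes of wider iron handling, 2 passed between WT sexes, *Scara5*, a receptor that takes up ferritin, which was lower in females, and *Steap2*, which was higher. *Scara5* was at 0.155, 0.207 and 0.16 CPM in WT females and 7.39, 24.9 and 16.3 CPM in WT males. ESR1KO livers lay between these levels without overlap, at 1.11, 0.551, 2.29, 2.05 and 0.921 CPM in females and 2.57, 1.70, 0.871 and 1.17 CPM in males. WT females were below WT males by -6.53 (SE 0.625, edgeR adjusted p = 2.85e-06). Against WT of the same sex it rose in ESR1KO females, by 2.98 (SE 0.623, edgeR adjusted p = 0.00981), and fell in ESR1KO males, with -3.42 (SE 0.439, edgeR adjusted p = 0.000569), and the effects differed by 6.40 (SE 0.750, edgeR adjusted p = 7.78e-05). *Steap2*, a metalloreductase of endosomes, was higher in WT females by 0.92 (SE 0.133, edgeR adjusted p = 0.000267). Between ESR1KO sexes none of the 22 passed in edgeR, 6 were under an unadjusted p of 0.05 and DESeq2 called 0. DESeq2 called 4 in females by genotype (*Ftl1*, *Ncoa4*, *Scara5* and *Lrp1*), 2 in males by genotype (*Ftl1* and *Scara5*), and *Steap2* and *Scara5* both between WT sexes and in the interaction. *Ftl1*, the light chain of ferritin, is named after its values were seen. It lay between 2102 and 2276 CPM in WT females and 2473 and 2940 in ESR1KO females, and between 2252 and 2883 CPM in WT males and 3045 and 3352 in ESR1KO males, without overlap in either sex. The differences were 0.31 and 0.34 by edgeR, which did not pass (adjusted p = 0.138 and 0.245), and 0.30 and 0.33 by DESeq2, which did (adjusted p = 0.0269 and 0.0477).

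None of 18 genes of haem synthesis, transport and breakdown passed by edgeR in any contrast. Between WT females and males, 5 were under an unadjusted p of 0.05 and DESeq2 called 3 (*Hmox2*, *Hpx* and *Hp*), and between ESR1KO sexes the numbers were 7 and 1 (*Fech*). They were 3 and 0 in females by genotype, 4 and 1 (*Hmox2*) in males by genotype and 3 and 0 in the interaction. *Alas2*, the erythroid form of the first enzyme of haem synthesis, was listed with the red cell markers and stood apart from them. It was at 13.7, 14.9 and 36.6 CPM in WT females and 192, 156 and 162 CPM in WT males, and between 117 and 157 CPM in ESR1KO females and 156 and 167 in ESR1KO males. WT females were lower than WT males by -2.97 (SE 0.278, edgeR adjusted p = 2.26e-06), ESR1KO females exceeded WT females by 2.56 (SE 0.259, edgeR adjusted p = 9.34e-06), and the interaction was 2.63 (SE 0.342, edgeR adjusted p = 0.000244). None of the 7 other tested erythroid markers passed in these contrasts by edgeR or DESeq2 or had an unadjusted p under 0.05, and the summed erythroid markers overlapped, at 80.8 to 552 CPM in WT females and 344 to 693 in WT males.

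**Figure D5:**
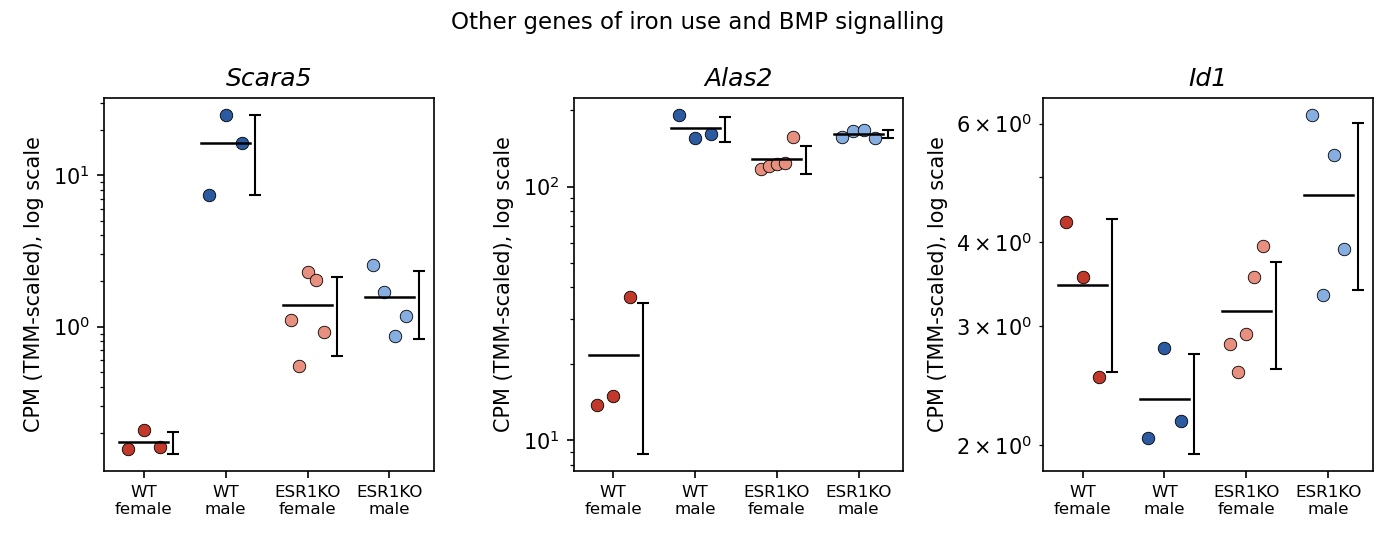
*Scara5*, *Alas2* and *Id1* in CPM on log axes, with a point for each mouse, a line at the group mean and a bar of ± 1 SD. WT females lie at or under 0.207 CPM of *Scara5* and 36.6 CPM of *Alas2*, below all other groups, and all ESR1KO males lie above the WT males for *Id1*.

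Across all tested genes, those whose log2 CPM tracked *Hamp2* most closely over the 15 libraries were *Cyp2b10* (r = 0.93), *Slc22a27* (0.92) and *Zswim9* (0.90). With group means taken out, the Pearson r fell to 0.31, 0.34 and 0.45, so these followed the groups more than the single mice. For *Tfrc* the closest were *Hnrnpc* (0.89), *Denr* (0.89) and *Dnaja1* (0.88), and there the r without group means stayed at 0.89, 0.90 and 0.96. *Hamp* was closest to *Evc2* (0.88), *Ksr1* (0.87) and *Nynrin* (0.86), *Id1* to *Phldb1* (0.85), *Hey1* (0.82) and *Sparc* (0.82). *Slc40a1* was closest to AC124513.1 (0.82), *Heca* (0.82) and *Rps19-ps3* (0.80), and *Bmp6* to *Tbc1d10c* (0.78), *Cc2d2a* (0.77) and *Sorl1* (0.76). They were the 3 highest of 17655 genes for each, and the libraries share their depth and groups. Some had few counts: *Hey1*, AC124513.1, *Rps19-ps3* and *Tbc1d10c* had a mean log2 CPM of -0.41, -1.47, -0.17 and -0.82. The rank correlation of *Tbc1d10c* with *Bmp6* was lower, at 0.60.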

How the data were processed

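Liver RNA-seq of 15 mice was analysed, 1 library per mouse, grouped by the sex and genotype of the labels. The authors depleted ribosomal RNA, sequenced paired ends on a NovaSeq6000 and gave some samples, not named, a second run. Reads were trimmed, aligned to GRCm38 and counted per gene. The submitters' processing notes list Trimmomatic 0.36, STAR and HTSeq 0.6.0. The study's methods name a later HTSeq version, and which of them gave the deposited counts is not known. The deposited values are these raw counts, without normalization, for 55573 genes, of which 33253 had a count. The annotation release, strand setting and treatment of multiply mapped reads are not given in the sources used here, which bears on near-identical and overlapping genes. Every column of the table was used.

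All 15 libraries entered a single quasi-likelihood fit of edgeR 4.0.16 (R 4.3.3), with TMM scaling, a term per group and filterByExpr, which kept 17655 genes. Contrasts were females minus males in each genotype, ESR1KO minus WT in each sex, and the difference of the latter (interaction). Log2 CPM adds a prior count of 2, and FPKM divides by the union of exons of GENCODE M21. Shares of *Hamp2* were compared by exact permutation tests in scipy 1.17.1. Alternatives were DESeq2 1.42.0, DESeq2 size factors, total counts, other filters, only the groups compared, a log2 fold change of at least 1.5, unadjusted p, the replicate number as a block and each mouse left out in turn. ESR1KO females 1 and 2 were left out together as an alternative chosen after seeing the data. The fit was run on simulated counts with planted changes larger than those of most of the iron genes. That run does not bear on smaller differences. Replicates were checked for repeated libraries: their chi-square per gene was at least 26.1, where a repeat would give about 1.

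The genes and lists were chosen with earlier results of these data known. Named are the 10 genes, from each other list the up to 4 passing genes with the smallest adjusted p, genes at 0, and the 3 genes most correlated with each of *Hamp*, *Hamp2*, *Tfrc*, *Slc40a1*, *Bmp6* and *Id1*. Depth was between 27799061 and 78624766 counts per library. Intervals and limits from counts cover counting error only.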

Additional observations from a re-analysis of the deposited data

Results flagged for a closer look

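The genotype effect differed between the sexes, by the interaction test of edgeR, for *Hamp2* (-4.58 on the log2 scale), *Scara5* (6.40), *Alas2* (2.63) and *Epcam* (-1.17, adjusted p = 0.039), the last a marker of bile duct cells that was higher in ESR1KO than in WT males by 0.95. *Hamp2*, *Scara5* and *Alas2* are described with their values above.

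A single mouse stood far from the rest of its group in 2 of 60 ESR1KO groups examined, over 29 genes and the share of *Hamp2*. The WT groups, with 3 mice each, were not examined in this way. ESR1KO male 4 was flagged for *Il6ra*, at 47.4 CPM against 25.5 to 28.3 in the other 3. ESR1KO female 5 was flagged for *Alas2*, at 156.5 CPM against 117 to 123 in the other 4. Chance alone gives about 1 such mouse in 20 groups.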

How the results depend on the processing

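*Hamp2* kept its direction and passed under every alternative and with each mouse left out between WT sexes, in males by genotype and in the interaction, with estimates without single mice of 4.52 to 5.13, 2.84 to 3.24 and -4.95 to -4.34. The calls of *Hamp2* in females by genotype and of *Id1* in males did not hold throughout, as given above. No called value of the 10 genes reversed. In 56 of 1240 values under alternatives the sign of an uncalled value changed. With fewer or more genes passing under most alternatives, the cause was not tested.

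Between WT females and males, 860 genes passed, 319 with a log2 fold change of at least 1.5, 3060 (3 of the 10 genes) at an unadjusted p and 1574 without ESR1KO females 1 and 2, a setting added after seeing the data. Between ESR1KO sexes 48 passed, 431 (1 of the 10) by DESeq2, 313 with no filter on low counts, 26 with only the groups compared, 25 with the minimum fold change, 3092 (3 of the 10) at an unadjusted p and 30 without those females. In females by genotype 1008 passed, 1533 by DESeq2, 457 (0 of the 10) with only the groups compared, 212 with the minimum fold change and 3973 at an unadjusted p. In males by genotype 250 passed, 487 by DESeq2, 411 with no filter, 422 (1 of the 10) with only the groups compared, 102 (1) with the minimum fold change, 2099 at an unadjusted p, 477 without those females, and 1 of the 10 with total counts. In the interaction 343 passed, 583 (2 of the 10) by DESeq2, 192 with the minimum fold change and 2520 (4) at an unadjusted p.

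With each mouse left out, these counts ranged from 541 (without WT male 1) to 1096, from 26 (without ESR1KO male 3) to 109 (without ESR1KO female 5), from 413 (without WT female 3) to 1538 (without ESR1KO female 5), from 100 (without WT male 3) to 331, and from 242 to 393. Of the 10 genes, 1 to 2, 0 to 0, 0 to 1, 1 to 2 and 1 to 2 passed. Over 2000 genes, the deviations of mice with the same replicate number from their group means had r between -0.286 and 0.194. Mice with different numbers were not compared in this way, so the values do not show whether same-numbered mice share a litter or batch. With the replicate number as a block, 165 genes passed in males by genotype (1 of the 10), *Id1* had an adjusted p of 0.101, and in females by genotype 0 of the 10 passed, *Hamp2* being at -1.17 (adjusted p = 0.0677). The share of *Hamp2* without single mice differed by 28.7 to 34.7, -0.165 to 6.45, -16.7 to -10.0 and 12.7 to 17.0 points in the 4 comparisons. With 3 mice in each WT group, differences as small as those of most of these genes could not be resolved.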

Other observations

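Of 13 clock genes only *Per3*, a circadian repressor, passed by edgeR, being lower in ESR1KO than in WT females by -0.59 (SE 0.127, edgeR adjusted p = 0.0126), where 5.71% of all genes passed. Of 15 immediate-early genes only *Dusp1*, a MAP kinase phosphatase, passed by edgeR, being lower in WT females than in WT males by -1.21 (SE 0.323, edgeR adjusted p = 0.0395), where 4.87% of all genes passed. Of markers of other cells, the cholangiocyte gene *Epcam* was higher (1.08, edgeR adjusted p = 0.00657), *Sox9* of the same list lower (-1.03, edgeR adjusted p = 0.0384) and the T cell gene *Cd3g* higher (1, edgeR adjusted p = 0.0378) in WT females than in WT males, and *Spp1* was higher in ESR1KO than in WT females (0.60, edgeR adjusted p = 0.0272). DESeq2 also called *Epcam*, *Sox9* and *Spp1* in these contrasts. It called 0 of the 9 tested lymphocyte and neutrophil markers between WT sexes, and so not *Cd3g*.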
